A study of Mus musculus with 2 samples.

Results

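The expression of 10 mouse genes that answer to NF-κB or belong to the acute-phase response was compared between dermal cell cultures with and without β-catenin knockdown. The genes were chosen by name: the cytokine genes Il6 and Lif, the feedback genes Nfkbia, Nfkbiz and Tnfaip3, the adhesion genes Icam1 and Vcam1, and the acute-phase genes Lcn2, Steap4 and Saa3. They are 10 of 19938 genes that had a probe set mapped to a single gene symbol, and each of the 10 had 1 such probe set. The cells were primary cells from the back dermis of newborn (postnatal day 0) C57BL/6 mice, grown for 24 h before transfection. The cells received either control siRNA or siRNAs against β-catenin, at 10 nM for 48 h, and each group was measured on 1 Affymetrix array. β-catenin is the product of Ctnnb1, a junction protein that also acts as the transcriptional effector of Wnt signalling, and siRNAs are short double-stranded RNAs that lead to cleavage of transcripts matching them. Cells of both groups had thus been exposed to transfected RNA, and untransfected cells were not analysed here. The labels do not say how many pups or cultures lie behind an array. With 1 array a group there was no replicate error and no test, and "higher" and "lower" below describe these 2 arrays. A smaller number of cells of one type and less RNA per cell cannot be told apart in such bulk samples.

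NF-κB is a family of dimeric transcription factors held in the cytoplasm by IκB proteins. Cytokines such as TNF and IL-1, and sensors of microbial products or of double-stranded RNA, activate the IκB kinase complex, IκB is degraded, and the freed dimer enters the nucleus. Among its targets are chemokines, cytokines, adhesion receptors and its own inhibitors, so the response limits itself. In fibroblasts of the skin this programme recruits leukocytes, and IκBζ, the product of Nfkbiz, together with C/EBP factors drives a second wave of targets that includes Lcn2.

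Values are log2 RMA values, in which a step of 1 is a doubling of signal. A difference is the value of the β-catenin siRNA array minus that of the control array. The siRNA target Ctnnb1 had 10.48 with control siRNA and 9.34 with β-catenin siRNA, so 45.2% of the control signal was left. A level filter kept the 10197 genes whose higher value reached 5.13, the median over the means of all genes. As a guide to scale, the differences of those kept genes had a robust SD, based on median absolute deviation, of 0.22. Noise of the arrays, spread between the cultures and effects of the siRNA all enter that figure, which is no replicate error.

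The stretches of DNA before the transcription start are shown for 6 genes, because they hold letters that NF-κB, C/EBP, STAT or interferon-regulatory factors recognise, and because their genes range from the largest difference of the 10 (Steap4) to the dimmest signal (Il6). RefSeq promoter windows (GRCm38.p6) were found for 8 of the 10 genes, all but Vcam1 and Nfkbiz, with 2 windows for Tnfaip3. Of those 2, only the window that held matches is shown. The 250 bases before each start were searched on both strands for the NF-κB consensus, for TTGCNNAA (C/EBP), for TTCNNNGAA (STAT) and for GAAANNGAA (the core of the interferon-stimulated response element). Sequences run 5′ to 3′ on the strand of the gene and end at the base before the start, with matches in capitals.

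Nfkbia (chr12:55492648-55492747, minus strand): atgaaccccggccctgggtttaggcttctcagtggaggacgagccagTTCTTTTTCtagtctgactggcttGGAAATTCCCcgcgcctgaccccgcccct
Tnfaip3 (chr10:19015411-19015560, minus strand): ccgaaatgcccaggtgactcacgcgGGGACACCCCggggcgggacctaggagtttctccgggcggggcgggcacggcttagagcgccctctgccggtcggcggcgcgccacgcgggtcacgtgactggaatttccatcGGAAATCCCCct
Il6 (chr5:30012964-30013113, plus strand): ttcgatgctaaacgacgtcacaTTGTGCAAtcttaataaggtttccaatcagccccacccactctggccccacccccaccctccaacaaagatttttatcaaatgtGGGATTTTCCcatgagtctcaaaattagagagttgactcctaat
Steap4 (chr5:7960222-7960471, plus strand): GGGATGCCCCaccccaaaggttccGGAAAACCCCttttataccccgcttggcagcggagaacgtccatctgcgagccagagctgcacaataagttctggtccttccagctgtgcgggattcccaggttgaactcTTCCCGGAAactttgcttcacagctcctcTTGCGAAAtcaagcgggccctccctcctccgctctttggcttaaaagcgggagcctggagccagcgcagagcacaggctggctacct
Saa3 (chr7:46715677-46715826, minus strand): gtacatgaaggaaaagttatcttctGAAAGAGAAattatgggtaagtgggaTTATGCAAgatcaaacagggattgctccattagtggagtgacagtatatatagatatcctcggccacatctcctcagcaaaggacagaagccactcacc
Lcn2 (chr2:32387740-32387989, minus strand): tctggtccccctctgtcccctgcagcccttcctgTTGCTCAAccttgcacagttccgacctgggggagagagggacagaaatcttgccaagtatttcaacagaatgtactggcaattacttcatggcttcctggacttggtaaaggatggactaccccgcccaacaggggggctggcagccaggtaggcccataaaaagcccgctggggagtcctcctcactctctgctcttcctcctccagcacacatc

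The NF-κB consensus was found before 4 of the 8 genes, in 4 of their 9 windows. Nfkbia had a match from 29 to 20 bases before the start, and Il6 one from 44 to 35. Steap4 had one each from 250 to 241 and from 226 to 217. Tnfaip3 had one each from 125 to 116 and from 12 to 3 in the window shown, and its other window held none. Of all 32851 promoter windows, 3.90% held this consensus. C/EBP letters lay before Il6, Steap4, Saa3 and Lcn2 (9.56% of all windows), and STAT letters before Steap4 and Icam1 (7.02%). The interferon element core lay before Saa3, from 125 to 117 bases, and before Nfkbia, from 53 to 45 bases, and was in 7.13% of all windows. No 2 motifs overlapped in the stretches shown. A match describes letters and shows no binding, and a window without one says nothing about the factor.

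Across the 10 genes, 8 had a higher value on the β-catenin siRNA array and 2, the cytokine genes, a lower one, where 41.6% of all 19938 genes were higher. At least 1.5-fold higher were 5 of the 10 genes (2.23% of all genes), namely Steap4, Lcn2, Nfkbia, Saa3 and Vcam1. The first 3 of these were at least 2-fold higher, against 0.607% of all genes. None of the 10 was 1.5-fold lower (2.35% of all genes) or 2-fold lower (0.321%). The median difference of the 10 genes was 0.63, and that of all genes was -0.02. Lcn2 and Saa3 passed the level filter through their β-catenin siRNA value alone, and Il6 did not pass it. Of the 7 genes with both values at or above the filter, 3 were at least 1.5-fold higher (2.04% of the 9710 genes that met this), with a median of 0.57. The genes had been picked with results of these arrays known, so these counts describe them and support nothing further.

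**Figure D1:**
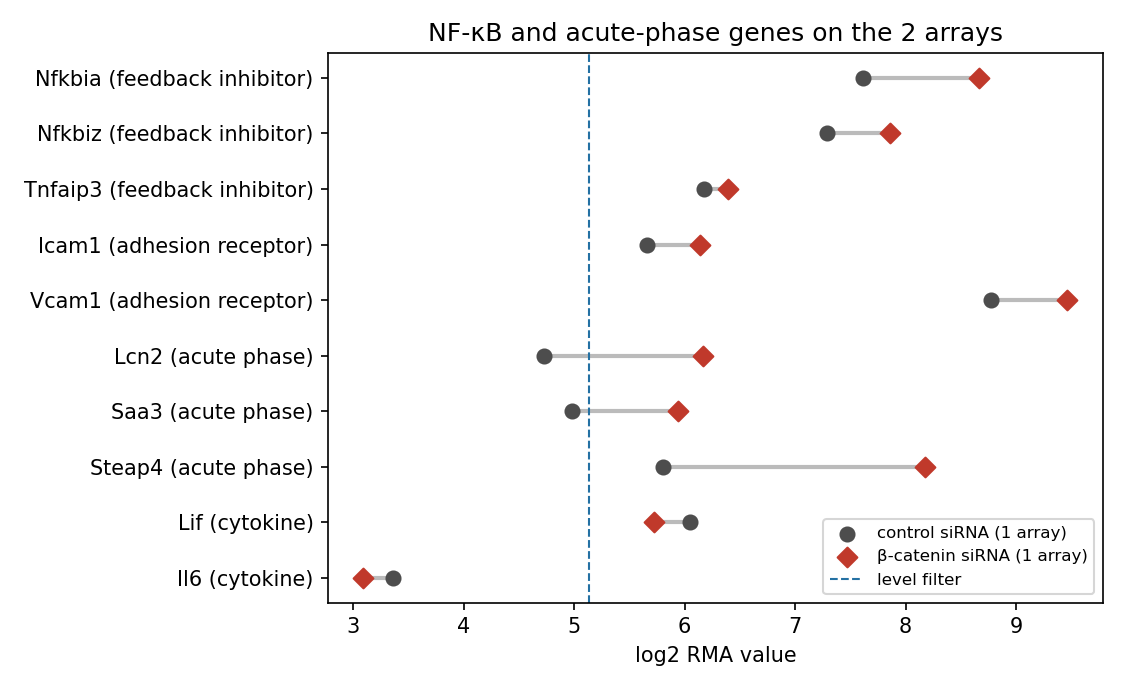
Log2 RMA value (x axis) of each gene (y axis, with its role) on the control siRNA array (grey circles) and on the β-catenin siRNA array (red diamonds), 1 array per group; the dashed line is the level filter of 5.13. For 8 of the 10 genes the diamond lies to the right of the circle, for Lif and Il6 it lies to the left, and Il6 stays below the filter on both arrays.

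Among the feedback inhibitors, Nfkbia differed most. This gene encodes IκBα, the inhibitor that binds NF-κB dimers in the cytoplasm and is made anew within a short time of NF-κB activation. Nfkbia had 7.62 with control siRNA and 8.66 with β-catenin siRNA, a difference of 1.04 or 2.06-fold, which ranked 85 from the top among the 10197 kept genes. Its level was well above the filter on both arrays, and the robust SD of the difference among the 500 kept genes nearest in level, called local below, was 0.21. Nfkbiz, which encodes the nuclear protein IκBζ, had 7.28 with control siRNA and 7.86 with β-catenin siRNA. The difference of 0.57 is 1.49-fold, just outside the 1.5-fold size, while Vcam1 at 1.61-fold lay just inside it. Tnfaip3 encodes A20, a ubiquitin-editing enzyme that shuts off signalling upstream of the IκB kinases. Its values of 6.18 and 6.40 gave a difference of 0.22, below the local robust SD of 0.24, and 14.7% of kept genes had a larger positive difference. The 3 feedback genes were thus all higher on the β-catenin siRNA array, from 1.17-fold to 2.06-fold.

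The genes for adhesion receptors were both higher. Icam1 encodes ICAM-1, the ligand of leukocyte β2 integrins. It had 5.66 with control siRNA and 6.14 with β-catenin siRNA, a difference of 0.49 or 1.40-fold. The local robust SD was 0.26. Vcam1 encodes VCAM-1, which binds the α4β1 integrin of lymphocytes and monocytes and is also made by fibroblasts. It had 8.78 and 9.46, a difference of 0.69 or 1.61-fold, rank 201 from the top, with a local robust SD of 0.19.

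The largest differences were those of the acute-phase genes Steap4 and Lcn2, while the acute-phase gene Saa3 differed less than Nfkbia. Steap4 encodes a metalloreductase of iron and copper that inflammatory cytokines induce. It had 5.81 with control siRNA and 8.17 with β-catenin siRNA, a difference of 2.37 or 5.16-fold, which ranked 10 from the top among kept genes. Both values lay above the filter, and 0.0883% of kept genes had a larger difference. Lcn2 encodes lipocalin-2, which binds bacterial siderophores and withholds iron. It had 4.73, under the filter, with control siRNA and 6.17 with β-catenin siRNA, a difference of 1.44 or 2.71-fold at rank 35. Saa3 encodes the serum amyloid A made outside the liver. Its control value of 4.98 was also under the filter and its β-catenin siRNA value was 5.94, a difference of 0.95 or 1.93-fold at rank 108. The folds of Lcn2 and Saa3 therefore rest on a dim control signal, in which RMA compresses differences.

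Of the cytokine genes, Lif was lower on the β-catenin siRNA array and Il6 was too dim to read. Lif encodes leukaemia inhibitory factor, an IL-6 family cytokine. It had 6.05 with control siRNA and 5.72 with β-catenin siRNA, which left 80.0% of the control signal. The difference of -0.32 ranked only 957 from the lowest among kept genes, and the local robust SD was 0.27. Il6, the cytokine that drives acute-phase synthesis in the liver, had 3.36 and 3.09, both far under the filter, a difference of -0.27 with a local robust SD of 0.39 among the dimmest kept genes. At this signal no direction can be read for Il6.

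**Figure D2:**
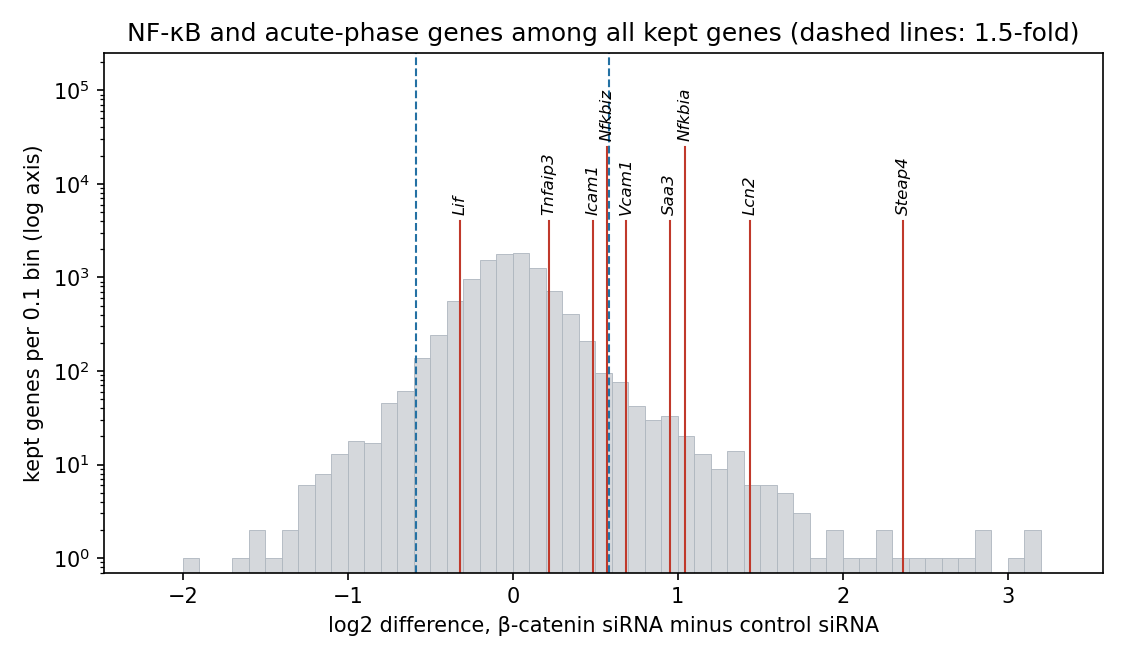
Number of kept genes (y axis, log scale) in bins of 0.1 of the log2 difference, β-catenin siRNA minus control siRNA (x axis, 10197 genes), with the 9 kept NF-κB and acute-phase genes as red lines and 1.5-fold as dashed lines. Steap4 at 2.37 and Lcn2 at 1.44 lie in the far right tail, Nfkbiz lies at the edge of 1.5-fold, and Lif at -0.32 lies left of centre.

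Genes of the NF-κB pathway itself were counted beside all kept genes, of which 2.76% were 1.5-fold higher and 1.84% lower. At such shares, finding none in a list this short says little. Of 4 kept genes for NF-κB subunits none reached 1.5-fold. Relb, whose product pairs with p52 in the non-canonical pathway, differed most, from 6.13 on the control array to 6.58. Of the others, Nfkb2, the p52 precursor gene, differed by 0.39 and Rela, the gene for p65, by -0.36; both are named after their values were seen. Among 14 kept genes for other IκB proteins and feedback inhibitors, 2 were at least 1.5-fold higher and none that much lower. Zc3h12a, the gene of the RNase regnase-1 that degrades cytokine transcripts, had 5.64 and 6.35 (1.64-fold), and Nfkbie, the gene of IκBε, had 4.62, under the filter, and 5.30 (1.60-fold). The median of those 14 genes was -0.01. None of 24 kept genes for IκB kinases and adaptors reached 1.5-fold in either direction, and their median was -0.06. The largest difference there was that of the kinase gene Map3k8, at 0.55, and its control value of 4.72 lay under the filter.

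Receptors that feed NF-κB went both ways. Of 11 kept receptor genes, 3 reached 1.5-fold higher (2.76% of all kept genes) and 2 reached 1.5-fold lower (1.84%), with a median of 0.08. Il1rap, the shared accessory chain of IL-1 family receptors, had 6.32 and 7.17 (1.81-fold). Ly96, the gene of the TLR4 partner MD-2, had 5.75 and 6.55 (1.74-fold), and Tlr2, a receptor of bacterial lipopeptides, had 5.33 and 6.04 (1.63-fold) and is also in the next list. Tnfrsf12a, the TWEAK receptor gene, had 8.30 and 7.67, a difference of -0.63, and Il17rc, an IL-17 receptor chain, differed by -0.62. Of 14 measured genes for activating ligands only 2 were kept, neither at 1.5-fold, and Hmgb1 had the larger difference, 0.25. Tnf, with values of 3.69 and 3.56, and Il1b, with 2.91 and 3.02, were under the filter on both arrays and are named after their values were seen.

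Other NF-κB-responsive genes were mostly higher. Of 24 kept genes, 19 were higher by some amount, where 45.8% of all kept genes were. Of these, 8 were 1.5-fold higher or more (2.76% of kept genes) and 4 were 2-fold higher or more (0.912%), and none was 1.5-fold lower. Their median was 0.25, against -0.02 for all kept genes. The 3 largest differences were those of chemokine genes. Cxcl5, for a neutrophil attractant, went from 7.05 to 9.57, Ccl2, for a monocyte attractant, from 7.95 to 10.21, and Ccl7, for another monocyte attractant, from 9.03 to 10.43. Cxcl1, another chemokine gene, differed by 0.85 and Ccl5 by 0.17, both named after their values were seen. The gelatinase gene Mmp9 had 7.55 and 8.91 (2.57-fold). The 5 lower genes included Ptgs2, the inducible cyclooxygenase gene, at -0.39, named after its value was seen. That list was written with the large differences of several chemokine genes on these arrays known.

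**Figure D3:**
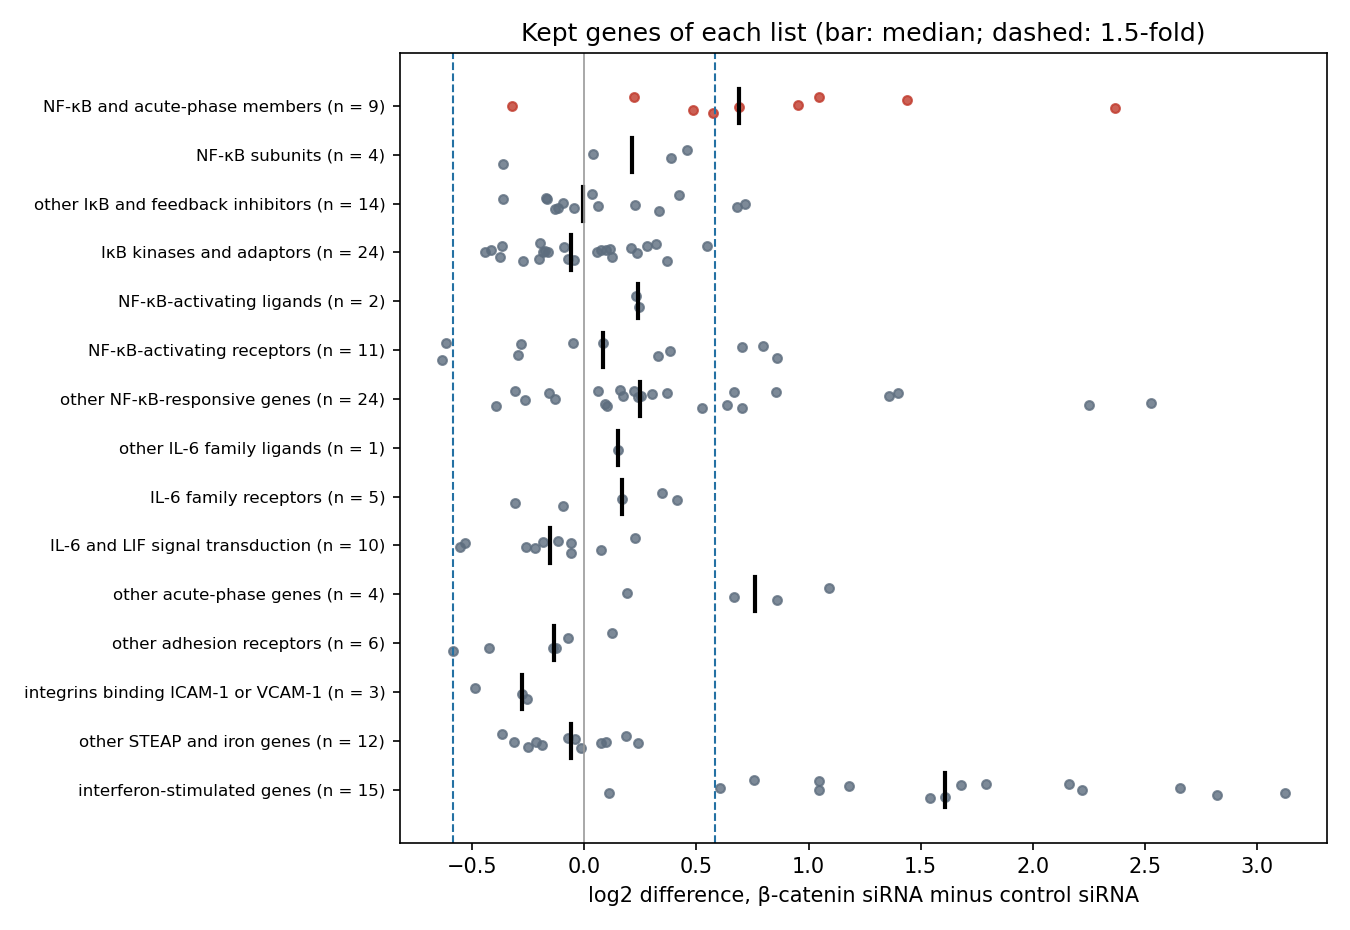
Log2 difference, β-catenin siRNA minus control siRNA (x axis), of every kept gene (points) in the 9 kept NF-κB and acute-phase genes (red) and in 14 gene lists (grey), with the median as a bar and 1.5-fold as dashed lines; vertical scatter within a row has no meaning. The medians are 0.69 for the red points, 0.25 for other NF-κB-responsive genes and 1.61 for interferon-stimulated genes, while IκB kinases and adaptors centre at -0.06.

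No kept receptor, further ligand or signalling gene of the IL-6 family reached 1.5-fold. Of all kept genes, 2.76% were that much higher and 1.84% lower. Among 5 kept receptor genes, Il6ra, the IL-6 receptor α chain, differed most, at 0.41. The LIF receptor gene Lifr differed by -0.31 and the shared chain gene Il6st by 0.35, both named after their values were seen. Of 10 kept genes of the IL-6 and LIF signalling route inside the cell, feedback genes included, 8 were lower and 2 higher. By any amount, 45.8% of all kept genes were higher. The kinase gene Jak2 differed most of the 10, at -0.55. Among the feedback and effector genes of that route, also named after their values were seen, Socs3 differed by -0.12 and Stat3 by -0.06. Of 6 measured genes for other IL-6 family ligands, Clcf1 alone was kept, with a difference of 0.15.

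Acute-phase genes outside the 10 were mostly dim. Of 28 measured, 4 were kept, and 3 of these were at least 1.5-fold higher, where 2.76% of all kept genes were. Cp, the gene of the copper-carrying ferroxidase ceruloplasmin, had 5.67 and 6.76 (2.13-fold). The metal-binding metallothionein gene Mt2 had 8.71 and 9.57 (1.81-fold), and the pentraxin gene Ptx3, also in the list of NF-κB-responsive genes, had 8.38 and 9.05 (1.59-fold). Over all 28 genes the median difference was 0.04. The other serum amyloid genes, close relatives of Saa3 and named after their values were seen, were far under the filter on both arrays, with differences of 0.46 for Saa1, -0.10 for Saa2 and -0.45 for Saa4. Whether probes of these relatives share signal was not tested.

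The large difference of Steap4 was not seen in its relatives. Steap1, Steap2 and Steap3, which encode the other metalloreductases of the family, differed by -0.21, -0.07 and 0.09. None of 12 kept genes of this family and of iron handling reached 1.5-fold, where 2.76% of all kept genes were that much higher and 1.84% lower. The largest difference was that of Lrp2, the gene of a large endocytic receptor that binds lipocalin-2, at -0.37. Among other adhesion receptor genes, 1 of 6 kept was 1.5-fold lower, where 1.84% of all kept genes were. It was the junction gene F11r, with 6.72 and 6.14, and it no longer reached that size after lowess or median centring. Of the integrin genes whose products bind ICAM-1 or VCAM-1, 3 of 9 were kept, all lower by less than 1.5-fold. Itga4, for the α4 chain, differed most, at -0.49.

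Most interferon-stimulated genes and several keratinocyte markers were also higher on the β-catenin siRNA array. Of 15 kept interferon-stimulated genes, 14 were at least 1.5-fold higher, where 2.76% of all kept genes were. Of the 14, 6 had a control value under the filter. With both values required to pass, 8 interferon-stimulated genes were 1.5-fold higher, where 2.04% of all genes that met this were. The sum of linear signal over all 20 measured was 1054 with control siRNA and 2822 with β-catenin siRNA. The largest of these differences were those of Ifit1 (3.92 and 7.05), Cxcl10 (5.56 and 8.38), Ifit3 (4.50 and 7.16) and Rtp4 (4.75 and 6.97). Of 16 measured keratinocyte markers 10 were kept, all higher by some amount (45.8% of all kept genes). At least 1.5-fold higher were 4 of the 10 (2.76% of all kept genes), and differences ran from 0.02 (Itgb4) to 1.02 (Krt5). Over all 16 the median difference was 0.21 and the lowest -0.55 (Krt15, under the filter), with a summed signal of 1080 with control siRNA and 1590 with β-catenin siRNA. Krt5, a basal keratin, had 7.64 and 8.65, and Epcam passed the filter through its β-catenin siRNA value alone. These genes are named after their values were seen. Keratinocytes also make Lcn2 and ICAM-1. The part of interferon-stimulated genes and of keratinocyte transcripts in the differences of the 10 genes was not tested.

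Markers of leukocytes and of endothelium, other sources of these transcripts, were at low signal. Of 17 macrophage and myeloid markers only Lyz2 was kept, at 4.75 and 5.38, and the summed signal of the list was 219.0 and 226.7. None of 11 neutrophil markers was kept, the highest value on either array was 4.14, and the sums were 112.2 and 111.7. No T cell marker of 7 was kept, with sums of 84.5 and 75.5. Of 12 endothelial markers 2 were kept, Kdr (5.34 and 4.82) and Egfl7 (5.68 and 5.52), and the sum was 274.4 and 256.6. Of 9 mast cell markers Gata2 alone was kept, with sums of 129.9 and 115.4. The label names cultured neonatal dermal cells, and all 15 markers of dermal fibroblasts were kept, with sums of 35365 and 38695. Of these, 9 were higher and 6 lower by some amount, where 45.8% of all kept genes were higher, with a median difference of 0.07. Lum, Dpt, Dcn and Pdgfra were at least 1.5-fold higher (2.76% of all kept genes), and none was that much lower (1.84%).

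**Figure D4:**
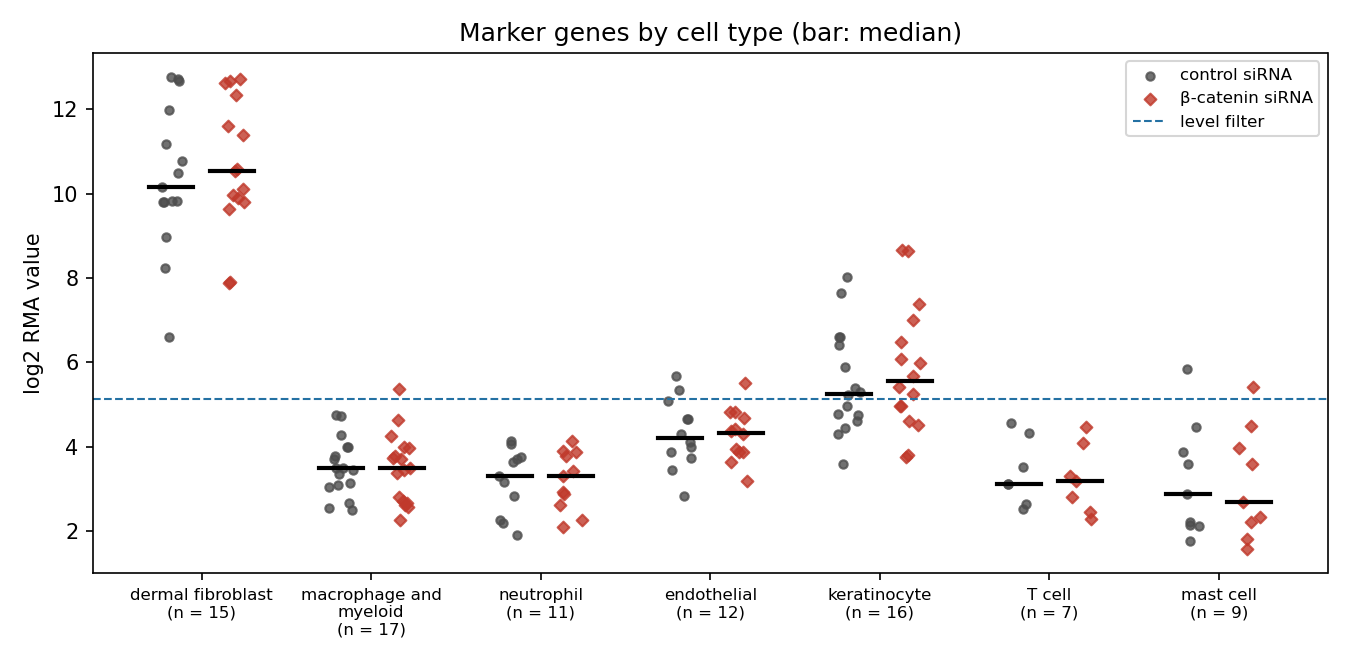
Log2 RMA value (y axis) of each measured marker gene of 7 cell types (x axis) on the control siRNA array (grey circles) and the β-catenin siRNA array (red diamonds), with medians as bars and the level filter of 5.13 dashed. Fibroblast markers lie above the filter on both arrays, all neutrophil and T cell markers lie under it, and keratinocyte markers are spread around it.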

How the data were processed

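Total RNA of each sample (300 ng) was labelled and hybridised to an Affymetrix whole-transcript array. The deposited values are on the log2 scale (judged from their range, 0.485 to 13.5) and were made by the authors with RMA, per the submitters' processing notes. RMA subtracts background, equalises the distributions of the arrays and summarises probes. Its version, filters and a genome build were not stated in these sources. The medians of all 28944 probe sets were 4.68 and 4.71. Equalising removes any overall difference in RNA yield, and detection calls were not used here.

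Probe sets with 1 gene symbol in the platform annotation (21789) were used, with symbols updated through RefSeq GRCm38.p6. Those with several (1621) or none (5534) were left out. Where a gene had several probe sets, the one with the highest mean stood for it. Differences, level filter, 1.5-fold and 2-fold counts were computed with Python 3.11.15, pandas 2.3.3 and statsmodels 0.14.6 (lowess). Lowess centring and the 2-fold counts were tested on simulated data, and the 1.5-fold counts and level filter were not. With 1 array per group no p-value or SD between replicates could be had; the robust SDs are over genes. Named were the 10 genes, the target and, per list, up to 4 kept genes at 1.5-fold, or else the largest. Members, the 14 pathway lists and 7 marker lists were chosen with earlier results of these data known. Alternatives were 2 ways of centring, the mean of probe sets and 3 level filters.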

Additional observations from a re-analysis of the deposited data

How the results depend on the processing

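With 1 array a group the number of arrays limits every value, and no replicate could be left out. No paired analysis was possible because each group has 1 array. Centring moved the 10 differences by at most 0.05, and each gene kept its sign. Lowess or median centring put Nfkbiz past 1.5-fold, for 6 genes at least 1.5-fold higher instead of 5, and left 0 lower adhesion receptor genes. With the level filter at the upper quartile, 3 of the 10 genes both passed it and were at least 1.5-fold higher. So were 0 other feedback inhibitors, 1 activating receptor and 8 interferon-stimulated genes, and 0 adhesion receptors were 1.5-fold lower. Shares over all genes were not computed after centring or at this filter. With both values required to pass the filter, 3 of the 7 genes that did so were at least 1.5-fold higher (2.04% of the 9710 genes that met this). So were 1 other feedback inhibitor and 8 interferon-stimulated genes. Without a filter 1 gene for another IL-6 family ligand, Il11, was 1.5-fold lower, from 4.80 to 4.04. Each of the changes with the filter comes from the number of genes admitted. The mean of probe sets could not move the 10 genes, which had 1 probe set each. Few list genes had more than 1, and no list count moved by more than 1.5 times.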
